A study of Mus musculus with 5 samples.

Results

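Slc7a11, Slc3a2, Gclm, Gstm1 and Sod2 are genes of cystine uptake, glutathione metabolism and mitochondrial superoxide removal. They were followed in mesenchymal stem cells (MSC) of mouse bone marrow that had shared medium with activated T cells. Every probe set annotated to 1 of these 5 genes was taken from the deposited table, which gave 8 of its 3373 probe sets, for 5 of its 2190 named genes. Slc7a11, Slc3a2 and Gclm had 1 probe set each, Sod2 had 2 and Gstm1 had 3. Co-cultured MSC (2 arrays) had spent 48 h in a transwell system with purified T cells, activated in vitro by antibodies to CD3 and CD28. There were 10 T cells for each MSC. MSC alone (3 arrays) were the naive cells they were compared with. The transwell membrane separates the 2 cell populations and lets soluble products pass. All MSC were primary cultures purified from mouse bone marrow and grown in Mesencult medium, and each array was labelled a separate biological repetition. The strain, sex and age of the mice, and the number of animals behind each culture, are not given in the sources used here. Whether the naive cells were also kept in transwells is not given either.

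Cystine, the oxidised form of cysteine, enters many cells through an exchanger that trades it for glutamate. This exchanger joins the light chain xCT, encoded by Slc7a11, to the heavy chain CD98, encoded by Slc3a2. Cysteine is then built into glutathione, the main small thiol of the cell, by glutamate-cysteine ligase and glutathione synthetase. Glutathione S-transferases couple it to reactive compounds, and superoxide formed in mitochondria is removed by the manganese enzyme encoded by Sod2. Slc7a11 and Gclm are textbook targets of the transcription factor NRF2, Slc7a11 also of ATF4, and Sod2 of NF-kB.

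The proximal promoters of 3 genes that were higher in co-culture are shown because they hold letters that match binding motifs of these or of interferon-activated factors. Sequences are from RefSeq, build GRCm38.p6, read on the strand of the gene, and run over the 250 bases before an annotated start site. The Slc7a11 stretch is chr3:50443614-50443863 on the minus strand, that of Gclm chr3:122245307-122245556 on the plus strand and that of Sod2 chr17:13007589-13007838 on the plus strand. Capitals mark the matches.
Slc7a11: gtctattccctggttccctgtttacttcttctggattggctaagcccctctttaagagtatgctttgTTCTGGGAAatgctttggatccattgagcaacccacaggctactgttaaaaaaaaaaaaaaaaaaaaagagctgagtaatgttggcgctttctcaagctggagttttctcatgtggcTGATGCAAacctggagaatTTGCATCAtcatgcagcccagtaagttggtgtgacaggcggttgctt
Gclm: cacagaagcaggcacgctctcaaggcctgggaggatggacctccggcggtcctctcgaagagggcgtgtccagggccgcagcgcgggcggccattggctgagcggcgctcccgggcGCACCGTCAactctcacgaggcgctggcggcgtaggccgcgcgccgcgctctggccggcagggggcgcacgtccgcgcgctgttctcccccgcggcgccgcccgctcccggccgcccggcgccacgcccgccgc
Sod2: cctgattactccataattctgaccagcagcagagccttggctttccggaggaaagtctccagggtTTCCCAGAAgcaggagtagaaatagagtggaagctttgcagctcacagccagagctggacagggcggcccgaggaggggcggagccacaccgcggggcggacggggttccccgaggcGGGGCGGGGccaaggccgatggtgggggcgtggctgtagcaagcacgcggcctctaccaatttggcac
Motifs were searched on both strands in all 32851 such stretches. In Slc7a11 the C/EBP-ATF response element (TGATGNAA) was found in both orientations, its first bases lying 66 and 47 bases before the start site. Of all stretches 3.45% held this motif at least once. The mouse Slc7a11 promoter is known for amino acid response elements bound by ATF4. In Gclm the core of the antioxidant response element (TGACNNNGC), the motif of NRF2, was found once on the opposite strand, against a share of 10.2% of all stretches. Slc7a11 and Sod2 each held 1 gamma-activated site (TTCNNNGAA), the motif of STAT factors, a motif found in 7.02% of stretches. It is a palindrome, so each site counts on both strands. Sod2 also held 1 GC box (GGGGCGGGG), as did 10.4% of stretches. The motif of interferon regulatory factors (AANNGAAA), present in 21.3% of stretches, was found in 1 of the 2 stretches of Gstm1 and in no other of these genes. Slc3a2 matched no motif searched, and none of the 5 genes matched a shortened NF-kB motif (GGNNTTTCC, 4.93% of stretches). The motifs were chosen after the sequences had been seen, and a match is a run of letters, not a shown binding site.

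The values are log2 probe set summaries from RMA, which corrects background, equalises the arrays and combines the probes of a probe set. Levels of different probe sets cannot be set against each other. The table holds a selected part of an array: the 2 co-culture arrays lay both above or both below every array of MSC alone in 100% of its 3373 probe sets. In limma, with all 5 arrays in 1 fit and Benjamini-Hochberg adjustment, 100% of probe sets had an adjusted p under 0.05, with 48.7% higher and 51.3% lower in co-culture. All 8 member probe sets were therefore bound to pass, and their passing and their lack of overlap say nothing about these genes in particular. The p-values below are given as a description, and the errors (SE) may be too small for the same reason. A stricter adjustment for 15-fold the number of tests, to allow for the unseen rest of the array, left 12.3% of the table (6.08% higher and 6.23% lower) and 5 of the 8 member probe sets (3 higher and 2 lower). Array medians over the probe sets of the table were 7.50 and 7.42 in co-culture and 7.64, 7.63 and 7.61 in MSC alone. Centring each array on its median adds 0.16 to every log2 difference below and turns no member round. Of 19 markers of mesenchymal stromal cells 9 were in the table, and they went both ways in co-culture: Col1a1, Col1a2, Col3a1, Cxcl12, Pdgfrb, Alcam and Cd44 (7 genes) were lower, and Pdgfra and Vcam1 (2 genes) were higher, by 3.77 and 2.91. Without MSC alone replicate 3 the rise of Pdgfra was 3.08. The difference of Pdgfrb was -2.55, and -3.19 or -1.92 when co-culture replicate 1 or 2 was left out. As an example of levels, the brightest probe set of Col1a2, encoding a chain of type I collagen, read 12.84 and 11.96 in co-culture. In MSC alone it read 14.46, 14.23 and 14.59, a difference of -2.02. The other Col1a2 probe sets, 1423110_at and 1446326_at, fell further, with differences of -5.26 and -3.51.

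Both chains of the cystine exchanger were higher in co-cultured MSC. Slc7a11, the transport chain, read 6.44 and 7.36 in co-culture replicates 1 and 2, against 5.62, 5.22 and 5.41 in MSC alone replicates 1, 2 and 3. The replicates of MSC alone lay close together, whereas co-culture replicate 2 stood well above replicate 1. Slc7a11 rose by 1.48 ± 0.31 on the log2 scale (SE), or 2.79-fold, with means of 6.90 ± 0.65 in co-culture (SD, n = 2) and 5.42 ± 0.20 in MSC alone (SD, n = 3; limma adjusted p 0.00623). Without co-culture replicate 2 the rise was 1.02, and without co-culture replicate 1 it was 1.94. This probe set belonged to the dimmest 25% of the table by mean level. Its 7.36 in co-culture replicate 2 lay near 7.42, the median on that array of the selected probe sets in the table, which is no measure of detection. RMA gives no detection call and compresses low values, so the size of this rise is uncertain. Under the stricter adjustment for 15-fold the tests its adjusted p in limma was 0.0935.

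Slc3a2, the heavy chain that also carries other amino acid transporters to the membrane, read 12.24 and 12.43 in co-culture and 11.00, 11.01 and 11.70 in MSC alone. MSC alone replicate 3 lay above its 2 fellows, and 0.53 separated it from the lower co-culture array, the narrowest gap between the groups among the 8 probe sets. Slc3a2 rose by 1.09 ± 0.27 on the log2 scale (SE), or 2.13-fold (limma adjusted p 0.00858, and 0.129 under the stricter adjustment). Of the 1642 probe sets that were higher in co-culture, 793 rose by more than Slc3a2 and 463 by more than Slc7a11. The other light chains that pair with CD98 (Slc7a5, Slc7a6, Slc7a7, Slc7a8 and Slc7a10) were not analysed here.

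Gclm encodes the modifier subunit of glutamate-cysteine ligase, which catalyses the first and rate-limiting step of glutathione synthesis. It read 10.44 and 10.88 in co-culture, against 8.35, 8.59 and 8.50 in MSC alone. Each group was tight and a gap of 1.85 lay between them, the widest of the 8 probe sets. Gclm rose by 2.18 ± 0.21 on the log2 scale (SE), or 4.54-fold, with a 95% confidence interval of 1.68 to 2.69 and a limma adjusted p of 0.00125. Under the stricter adjustment p was 0.0188 in limma, the lowest among the members. Only 214 of the 1642 higher probe sets rose by more.

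Sod2 had the largest rise of the 5 genes, and its 2 probe sets gave nearly the same answer. The brighter one (1448610_a_at) read 11.96 and 12.81 in co-culture and 9.86, 9.87 and 10.38 in MSC alone. The dimmer one (1417193_at) read 11.47 and 12.32 in co-culture and 9.44, 9.29 and 9.90 in MSC alone. In both, co-culture replicate 2 was the highest array, MSC alone replicate 3 was the highest of its group, and the groups lay far apart. They rose by 2.347 ± 0.31 and 2.352 ± 0.32 on the log2 scale (SE), or 5.09-fold and 5.10-fold (limma adjusted p 0.0029 and 0.00301). The gap between the 2 probe sets was -0.48 in both co-culture arrays and ran from -0.57 to -0.42 in MSC alone, a range that takes in both co-culture values (exact permutation test over arrays, two-sided p = 1, in a design that cannot go below 0.2). Without co-culture replicate 2 the rise of the brighter probe set was 1.92, and without co-culture replicate 1 it was 2.77. Of the 1642 higher probe sets 172 rose by more.

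Gstm1, a cytosolic glutathione S-transferase of the mu class, was the only member that fell. Its brightest probe set (1416416_x_at) read 8.17 and 8.27 in co-culture and 9.58, 9.55 and 9.59 in MSC alone. The second (1448330_at) read 8.05 and 8.02 in co-culture and 9.38, 9.24 and 9.37 in MSC alone. These 2 probe sets were tight within each group. They fell by 1.35 ± 0.16 and fell by 1.30 ± 0.17 on the log2 scale (SE), or 2.56-fold and 2.46-fold lower (limma adjusted p 0.00225 and 0.00262). The third and dimmest (1425627_x_at) read 7.02 in both co-culture arrays and 7.63, 7.69 and 7.98 in MSC alone. Its groups were also apart, but it fell by 0.74 ± 0.19, or 1.67-fold lower (limma adjusted p 0.00932, and 0.14 under the stricter adjustment).

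The third Gstm1 probe set therefore showed a smaller fall than the other 2. The gap between it and the brightest was -1.15 and -1.24 in co-culture and -1.95, -1.87 and -1.61 in MSC alone. The groups did not overlap in this gap, which differed by 0.62 between them (exact permutation test, two-sided p = 0.2, the smallest that 10 arrangements of 2 and 3 arrays allow; adjusted p 0.4 over 4 pairs of probe sets). Between the first and second probe sets the gap differed by 0.06 (exact p = 0.6, in the same design). Probe sets with identifiers ending in _x_at can bind transcripts of related genes, and mu-class transferases are close in sequence. Both the brightest probe set and the third carry this mark, and the second does not. Whether related transcripts add to any of them was not tested.

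**Figure D1:**
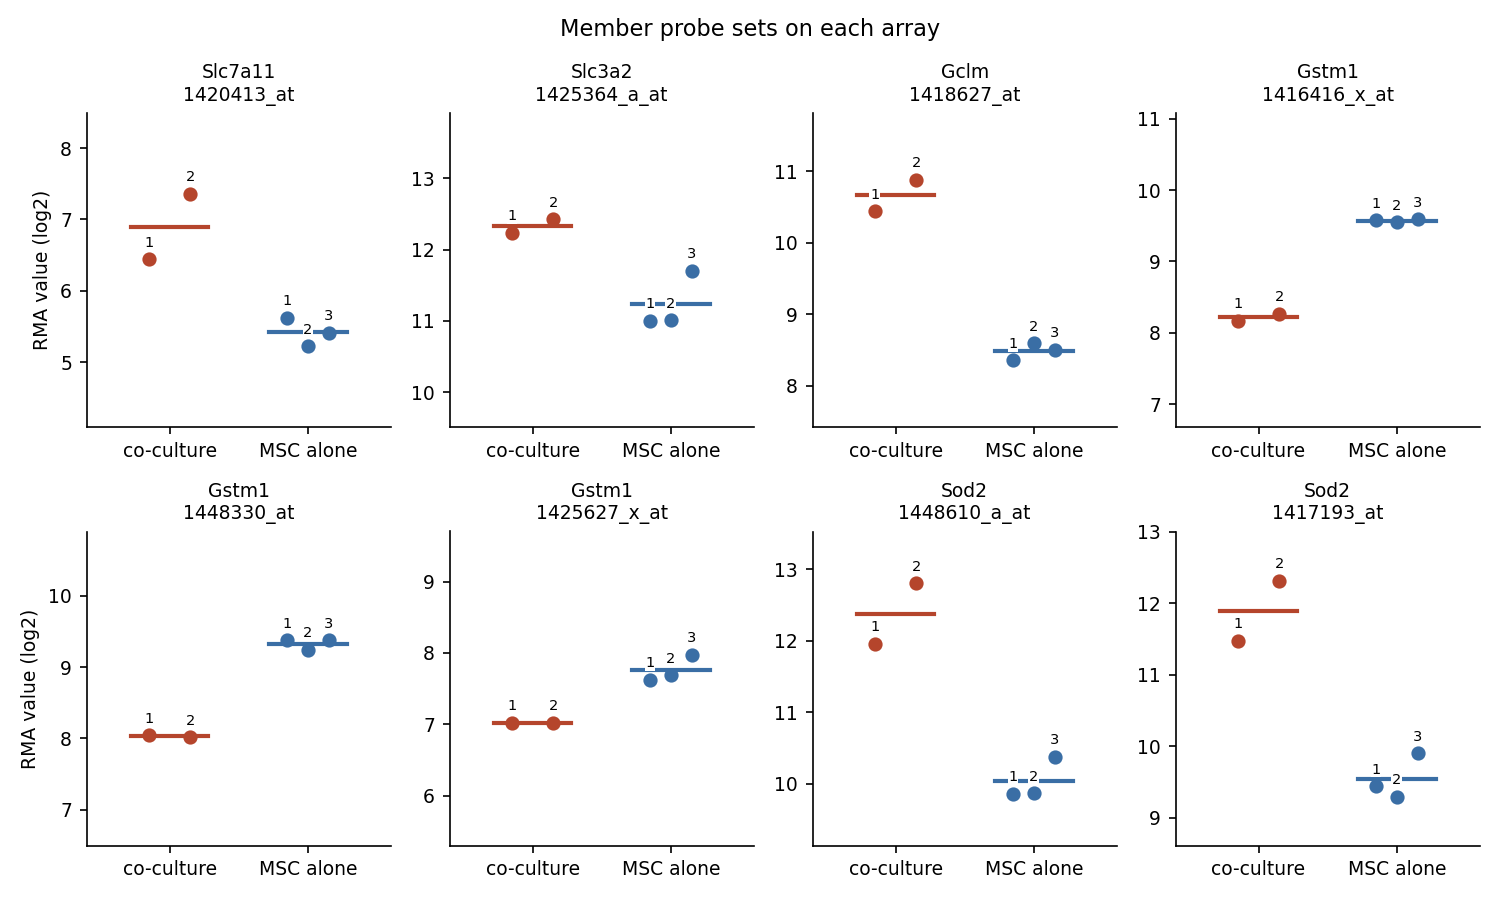
RMA log2 value (vertical axis, every panel spanning the same number of log2 units) of each member probe set on each array. Points are arrays numbered by replicate (co-culture left, n = 2, and MSC alone right, n = 3) and bars are group means. Slc7a11, Slc3a2, Gclm and Sod2 were higher in co-culture and the 3 Gstm1 probe sets were lower.

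In all 5 probe sets that rose, co-culture replicate 2 read higher than replicate 1, by 0.92 for Slc7a11, 0.19 for Slc3a2, 0.44 for Gclm and 0.85 for the brighter Sod2 probe set. The same order was found in 71.1% of the 1642 higher probe sets of the table. In MSC alone, replicate 3 was the highest array for Slc3a2 and both Sod2 probe sets, but not for Slc7a11 or Gclm. Gstm1 differed between the co-culture arrays by at most 0.10. Leaving out any 1 array moved no member's fold by more than 1.5 times, as the plot with each array left out shows. All 8 stayed under the threshold without any 1 array of MSC alone, but so did most of the table. Without replicate 1, 2 or 3 of MSC alone, 1539, 1583 and 1641 probe sets were called higher, against 1642 with all arrays. Those called lower were 1655, 1685 and 1730, against 1731. That the members stayed called therefore says nothing about these genes in particular.

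**Figure D2:**
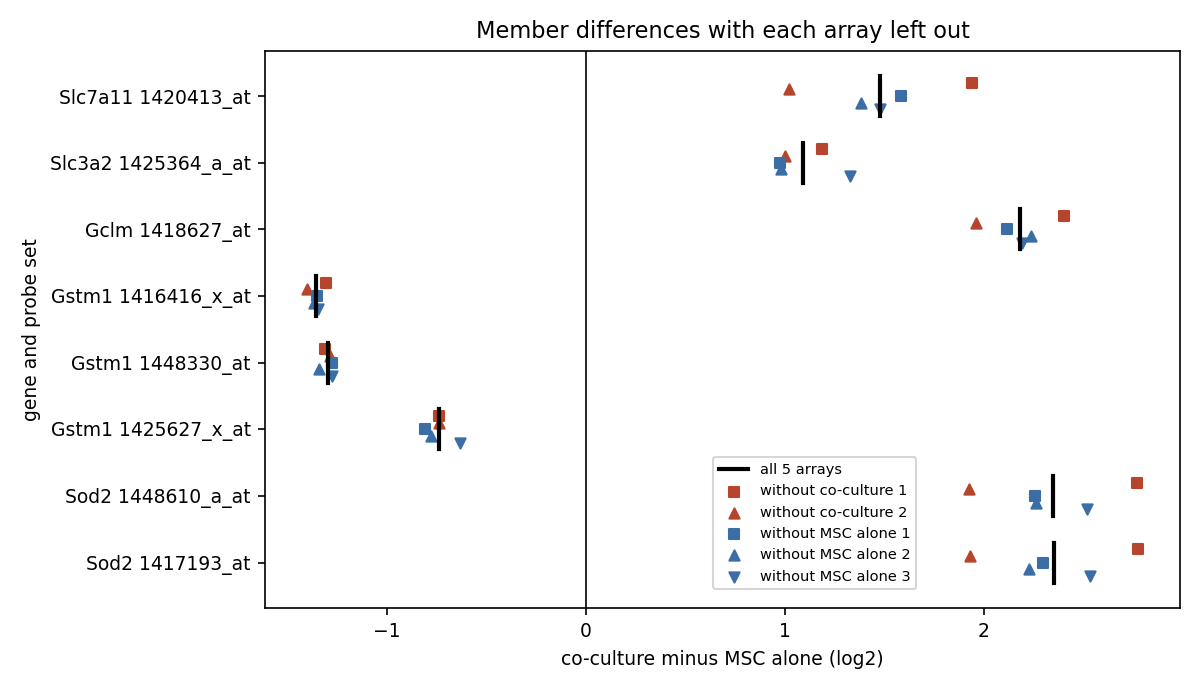
Difference between co-culture and MSC alone (log2, horizontal axis) for each member probe set, with all 5 arrays (black bar) and with each array left out in turn (symbols). The co-culture arrays moved Slc7a11 and Sod2 most (1.02 to 1.94 and 1.92 to 2.77), and no difference changed sign.

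The other genes of the pathway were taken from 7 lists of 191 genes, of which 40 were in the table and 151 were not analysed here. Of the 40, members included, 22 rose and 18 fell, which every gene of this table had to do in 1 direction or the other (100% of 2190 genes called, 48.3% higher and 51.7% lower). Their median difference was 0.54 on the log2 scale, against -0.61 for all 2190 genes. Since the table holds no differences near 0, the sign of such a median follows from which direction has slightly more genes, and nothing is read from it here or for the lists below. A gene is read from its brightest probe set. The fit over all probe sets in limma supplied the calls. Leaving out 1 array in turn ended the call for 6 of the 40 genes in at least 1 case: Txn1, Gstm7, Gss, Cdo1, Aldh18a1 and Cul3.

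Of 32 genes of cystine transport and glutathione synthesis 9 were in the table, 7 of them higher and 2 lower, with a median of 0.79. Gclc, the catalytic partner of Gclm, read 9.21 and 9.07 in co-culture and 8.22, 8.50 and 8.32 in MSC alone, a rise of 0.79 ± 0.18 (SE). The 95% interval was 1.68 to 2.69 for the rise of Gclm (2.18) and 0.35 to 1.24 for that of Gclc. These intervals may be too narrow in a table selected for separated groups. The other Gclc probe set (1455959_s_at) rose by 0.61. Whether the 2 subunits rose by different amounts was not tested. Gss, glutathione synthetase, rose by 0.56 ± 0.17, a call lost in limma without MSC alone replicate 1 or 2 or co-culture replicate 2 (adjusted p 0.064, 0.069 and 0.0522). Ggct, gamma-glutamylcyclotransferase, which breaks down gamma-glutamyl compounds, rose by 2.56 ± 0.33, with levels of 8.66 and 9.73 in co-culture and 6.55, 6.80 and 6.54 in MSC alone. Cdo1, which oxidises cysteine toward taurine, rose by 0.52 ± 0.17 at low levels of 3.38 to 4.03 and lost its call without the same 3 arrays (adjusted p up to 0.0828 in limma). Slc6a6, the taurine transporter, fell by 0.81 ± 0.21, and Slc1a4, a carrier of small neutral amino acids, fell by 2.01 ± 0.36.

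All 6 glutathione S-transferase genes in the table, of 27 listed, were lower in co-culture, with a median difference of -1.30. Besides Gstm1 they were Mgst3, a microsomal member, which fell by 2.00 ± 0.20 (SE), and Gstt1, of the theta class, which fell by 1.48 ± 0.19. Gstcd, named for a domain of this family, fell by 1.25 ± 0.29. Gstz1, which also acts in tyrosine breakdown, fell by 1.02 ± 0.27, and Gstm7, another mu-class member with levels of 3.48 to 4.10, fell by 0.53 ± 0.17. In limma the call of Gstm7 was lost without MSC alone replicate 1 or 2 or co-culture replicate 2 (adjusted p 0.0594, 0.0618 and 0.064) and with each array centred on its median (0.0651), which left 5 of the 6 called. Mgst3 read 6.48 and 6.87 in co-culture and 8.76, 8.68 and 8.59 in MSC alone.

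**Figure D3:**
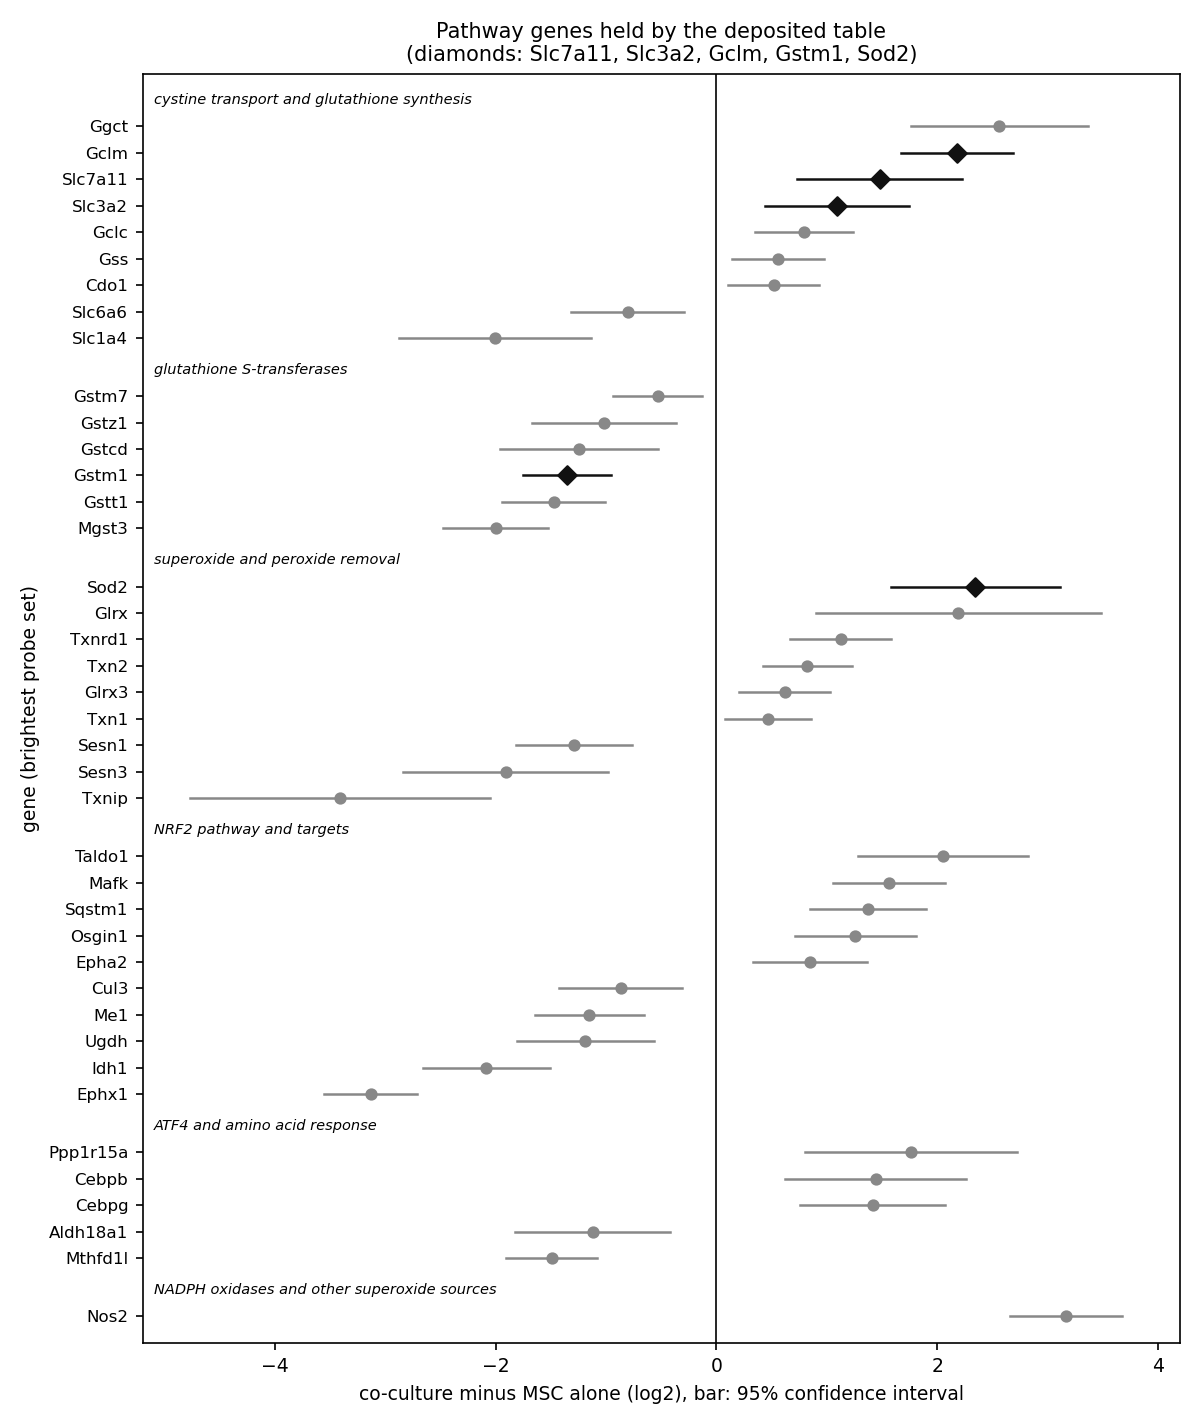
Difference between co-culture and MSC alone (log2, horizontal axis) with its 95% confidence interval from limma for the 40 pathway genes in the table, each shown once under the first list that holds it. The 6 glutathione S-transferases lie left of 0, and Gclm, Slc7a11, Slc3a2 and Sod2 (diamonds) lie right of it.

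Of 40 genes of superoxide and peroxide removal 9 were in the table, 6 higher and 3 lower, with a median of 0.62. After Sod2 the largest rise was that of Glrx, glutaredoxin, at 2.19 ± 0.53 (SE; adjusted p 0.0563 in limma's linear model without moderation of the spread). The thioredoxin system shifted by less: Txnrd1, cytosolic thioredoxin reductase, rose by 1.13 ± 0.19, Txn2, the mitochondrial thioredoxin, by 0.82 ± 0.16 and Txn1, the cytosolic one, by 0.47 ± 0.16. Txn1 lost its call in limma without MSC alone replicate 1 or 2 (adjusted p 0.0872 and 0.0806). Its differences ran from 0.45 to 0.48 with any 1 array left out. The other Txn1 probe set (1456734_at) rose by 0.61. It kept its call in limma without any 1 array of MSC alone (adjusted p up to 0.0409). Glrx3 rose by 0.62 ± 0.17. Txnip, which binds and inhibits thioredoxin, fell by 3.41 ± 0.56, with levels of 5.76 and 7.71 in co-culture and 10.43, 10.20 and 9.82 in MSC alone. It was 20.96-fold lower without co-culture replicate 2 and 5.42-fold lower without co-culture replicate 1. The sestrin genes Sesn3 and Sesn1 fell by 1.91 ± 0.38 and fell by 1.29 ± 0.22. Sod1, Sod3, Cat and the Gpx genes were not analysed here. Of 20 genes for superoxide and related radical sources 1 was in the table, Nos2, inducible nitric oxide synthase, which rose by 3.17 ± 0.21.

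Of 42 NRF2 pathway and target genes 15 were in the table, with 9 higher, 6 lower and a median of 0.85, so the list held both directions. Beyond Gclm, Slc7a11, Gclc and Txnrd1 the risers were Taldo1, a pentose phosphate enzyme (2.05 ± 0.32, SE), Mafk, a small Maf partner of NRF2 (1.56 ± 0.21), Sqstm1, which binds the NRF2 inhibitor KEAP1 (1.37 ± 0.22), Osgin1 (1.26 ± 0.23) and Epha2 (0.85 ± 0.21). Ephx1, microsomal epoxide hydrolase, fell by 3.13 ± 0.17, at 6.41 and 6.53 in co-culture and 9.49, 9.67 and 9.66 in MSC alone. Gstm1, the only member that fell, is also on this list, with a difference of -1.35. The NADPH-forming enzymes Idh1 and Me1 fell by 2.09 ± 0.24 and fell by 1.15 ± 0.20. Ugdh, which makes the sugar donor for glucuronidation, fell by 1.19 ± 0.25. Cul3, the ubiquitin ligase scaffold that works with KEAP1, fell by 0.87 ± 0.23, with a difference of -0.69 without co-culture replicate 2. Its other probe sets, 1434717_at and 1450756_s_at, fell by 0.80 and 1.01. Nfe2l2, which encodes NRF2 itself, Keap1, Nqo1 and Hmox1 were not analysed here.

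Of 42 genes of ATF4 and the amino acid response 8 were in the table, 5 higher and 3 lower, with a median of 1.25. Apart from Slc7a11 and Slc3a2 the risers were Ppp1r15a, a phosphatase subunit that reverses the stress block on translation (1.76 ± 0.39, SE), and Cebpb and Cebpg, C/EBP factors that can pair with ATF4 (1.44 ± 0.34 and 1.42 ± 0.27). The largest difference of the list in either direction was that of Slc1a4, named above, which fell by 2.01 ± 0.36. Mthfd1l, a mitochondrial folate enzyme, and Aldh18a1, which starts proline synthesis, fell by 1.49 ± 0.17 and fell by 1.12 ± 0.29. Without co-culture replicate 2 the difference of Aldh18a1 was -0.90. Atf4, Chac1 and Asns were not analysed here.

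**Figure D4:**
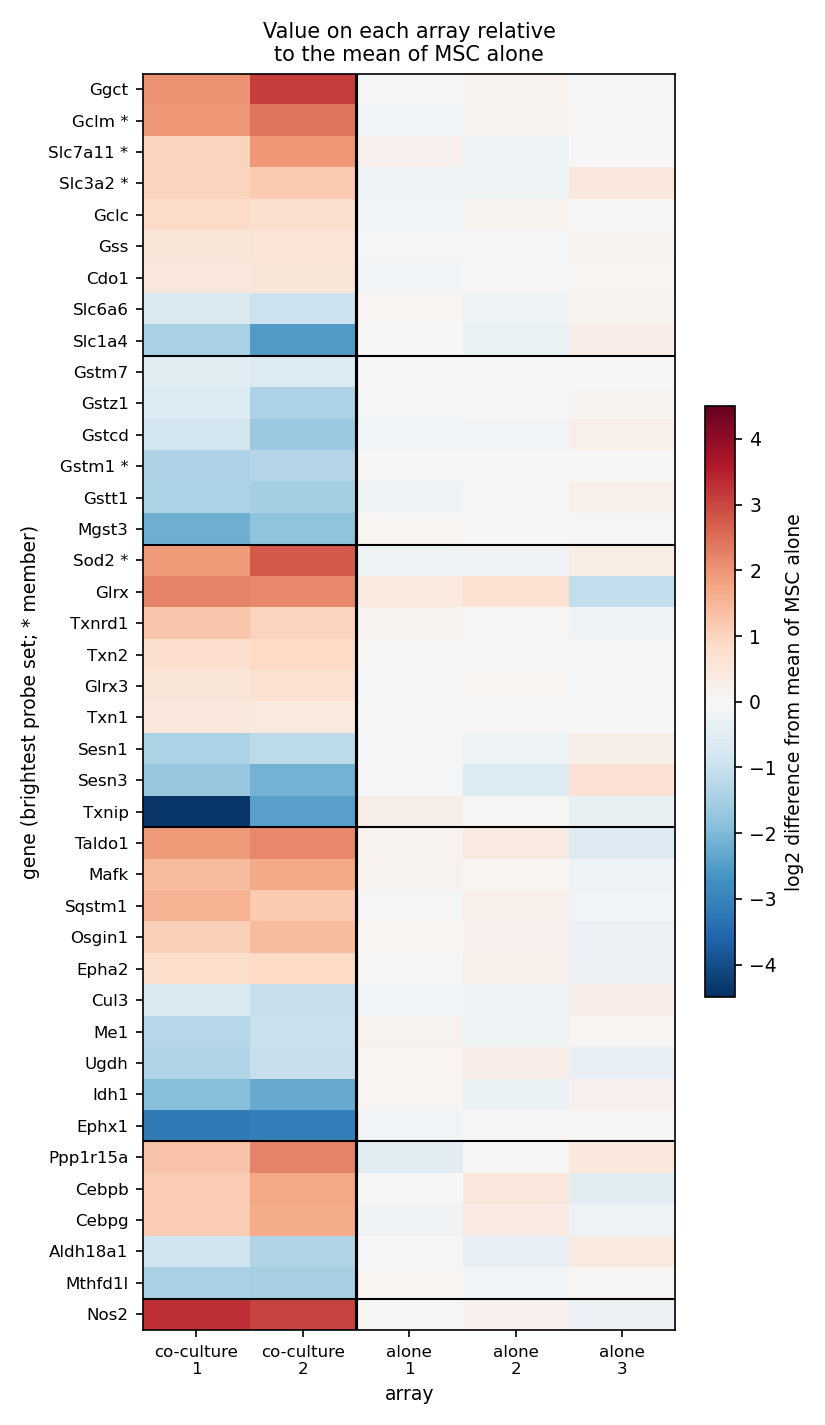
Log2 value of each of the 40 pathway genes on each array minus the mean of MSC alone (colour scale; red above and blue below), with co-culture arrays left of the vertical line and members starred. Horizontal lines part the lists. Sod2 stood at 1.92 and 2.77 in the co-culture arrays and Gstm1 at -1.40 and -1.31.

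By the likeness of the whole 5-array pattern, each gene centred on its own mean, Slc7a11 was nearest to Clcf1, a cytokine gene, with a root mean square difference of 0.083 on the log2 scale, then Plk3 (0.088) and Fam111a (0.092), against a median of 1.10 over the 2189 other genes. Slc3a2 was nearest to Hook2 (0.066), Creld2 (0.091) and Wdr43 (0.114). Gclm was nearest to 5430416N02Rik (0.104), Whamm (0.126) and Cebpd (0.133), Gstm1 to Smap2 (0.069), Pimreg (0.097) and Mthfd1l (0.097), and Sod2 to Tatdn2 (0.145), Utp18 (0.165) and Fam171b (0.212). No other member was among the 3 nearest of any member. With 5 arrays and a table selected for separated groups these are descriptions only.

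RNA was taken from whole cultures, so fewer cells of a type and less RNA per cell cannot be told apart. Of 24 T cell markers 0 were in the table, so that cell type was not analysed here. Of 25 macrophage and monocyte markers 2 were in the table, and both were higher in co-culture. Mpeg1 read 9.44 and 8.81 in co-culture and 4.40, 4.82 and 4.71 in MSC alone, and Ctss 6.62 and 5.89 in co-culture and 3.08, 3.65 and 3.36 in MSC alone. The mean level of the 2 was 8.03 and 7.35 in the co-culture arrays and 3.74, 4.24 and 4.03 in MSC alone. Both were higher in co-culture replicate 1 than in replicate 2. Slc7a11, Slc3a2, Gclm and Sod2 were higher in replicate 2, as were 71.1% of the 1642 higher probe sets. With 2 co-culture arrays nothing is read from this order. The part of such cells in the members' differences was not tested.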

How the data were processed

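Biotinylated cRNA from 5 MSC cultures was hybridised to Affymetrix arrays, per the labels' protocols. The authors deposited log2 values per probe set from RMA, which the submitters' processing notes name without a version. How the 3373 probe sets were picked was not given in the sources used here. Columns were matched to samples by accession and groups taken from titles. The platform annotation gave 1 symbol for 3013 probe sets, several for 69 and none for 291, and 3010 of the first were found in RefSeq (GRCm38.p6), which changed 0 symbols.

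limma 3.58.1 under R 4.3.3 (lmFit, eBayes, no covariate, no filter, two-sided) was run over all probe sets with a threshold of 0.05. The fit was also run on simulated data. In those most probe sets had no group difference, unlike this selected table, so they say nothing about the errors or p-values here. Differences are co-culture minus MSC alone. Named genes are all members, all genes of the pathway lists that the table holds, and the 3 genes nearest to each member. The cell type markers named besides were chosen after their values were seen. Members and lists were chosen with earlier results of these data known. The number of arrays limits the precision. Alternatives were leaving out each array, centring, no moderation, trended robust moderation, dropping dim probe sets, 15 times as many tests, probe set means and a replicate block.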

Additional observations from a re-analysis of the deposited data

How the results depend on the processing

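All 8 member probe sets kept their direction under every alternative run. With 15 times as many tests, which changes only the adjustment, the adjusted p of Slc7a11 (difference 1.48), Slc3a2 (1.09) and the dimmest Gstm1 probe set (-0.74) passed the threshold no longer (0.0935, 0.129 and 0.14), and 3 rising member probe sets were called, against 5. Under it 205 probe sets of the table were called higher and 210 lower, against 1642 and 1731. Of the pathway lists it called 2 genes higher and 0 lower for cystine transport and glutathione synthesis, 3 lower among transferases, 1 higher and 0 lower for superoxide and peroxide removal, 2 higher and 3 lower for NRF2, and 0 higher and 1 lower for ATF4. With arrays left out in turn, differences ranged from 1.02 to 1.94 for Slc7a11, 0.97 to 1.33 for Slc3a2, 1.96 to 2.40 for Gclm and 1.92 to 2.77 for both Sod2 probe sets, and from -1.40 to -1.31, -1.34 to -1.27 and -0.81 to -0.63 for the Gstm1 probe sets. Of the 40 pathway genes, read from their brightest probe sets, Txn1, Gstm7, Gss and Cdo1 lost their call without MSC alone replicate 1 or 2. Gstm7 also lost it with centring, and Glrx without moderation. With centring 1642 probe sets of the table were called higher and 1673 lower, and without moderation 1605 and 1676. Without co-culture replicate 2 the differences of Cul3 and Aldh18a1 were -0.69 and -0.90. Slc7a11 gave no value without the dimmest 25% of probe sets, which leave it out.

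The groups share the replicate numbers 1 and 2. With 2 such pairs, and labels that tie the numbers to nothing, these are not taken to pair the samples. Deviations from the group means correlated at 0.22 over probe sets between the arrays numbered 1 and at 0.32 between those numbered 2. With 2 co-culture arrays their deviations mirror each other, so arrays of unlike number gave -0.22 and -0.32. The 2 positive values are therefore not separate checks. MSC alone replicate 3 gave 0.11 with co-culture replicate 1 and -0.11 with replicate 2. With the replicate block 1636 probe sets were called higher and 1729 lower, and all 8 member probe sets remained called. MSC alone replicate 3 is the only array with its number, so this fit gives it no part in the difference. The differences of Slc7a11 and Slc3a2 (1.48 and 1.33) were those found without that array. The block is therefore not a separate check from leaving that array out.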

Other observations

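Probe sets also differed in other genes of these lists. The brightest probe set of Sqstm1 rose by 1.37 on the log2 scale, whereas its dimmer one (1444021_at) rose by 4.55, with levels of 8.89 and 11.55 in co-culture and 4.95, 6.90 and 5.18 in MSC alone. Its rise was 5.88 without co-culture replicate 1 and 3.22 without co-culture replicate 2. The 2 Txnip probe sets fell by 3.41 and fell by 2.55.

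Glrx had the widest spread within MSC alone among the brightest probe sets of the pathway genes. Its brightest probe set read 10.57 and 10.50 in co-culture and 8.78, 9.01 and 7.23 in MSC alone, and its other probe set read 10.48 and 10.30 in co-culture and 8.37, 8.75 and 7.12 in MSC alone. Replicate 3 of MSC alone was the lowest array in both, whereas it was the highest of its group for Slc3a2 and Sod2.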
